A study of Mus musculus with 4 samples.

Results

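MHC class II transcripts of the mouse thoracic aorta were carried mainly by a small fraction of the phagocytes, and all 6 genes examined differed in the same direction in each comparison of phagocytes between libraries. The 6 genes were H2-Aa, H2-Ab1, H2-Eb1, H2-DMa, H2-DMb1 and Cd74, chosen by name from the 17524 genes listed in every library. Single cells of the thoracic aorta, the part of the main artery in the chest, had been captured with a droplet method that tags an end of each transcript and counts it by a unique molecular identifier (UMI). The labels name a kit that tags the 3′ end, but the form of the cell barcodes left the kit version in doubt, so the tagged end is given as labelled. The study asked what STING, an adaptor of cytosolic DNA sensing encoded by Tmem173, does in the aorta with and without angiotensin II (AngII), a peptide hormone that constricts arteries.

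There were 4 libraries, each from 3 pooled mice. KO AngII came from mice with whole-body knockout of Sting that received AngII for 7 days and a high fat diet for 5 weeks. KO saline came from knockout mice given saline and a normal diet. WT AngII and WT saline were the same treatments in wild type mice. AngII below stands for infusion and diet together, which cannot be told apart. With 1 library per group there was no replicate check, no test was possible, and intervals cover counting error only. No source used here gives the mouse strain, age, sex or the altered part of the gene. Tmem173 UMIs numbered 578 for KO AngII, 102 for KO saline, 637 for WT AngII and 105 for WT saline, which is no depletion under the KO label. Tags outside the altered part would check nothing, and KO means a library so labelled.

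The libraries held 8507, 12053, 8495 and 9261 cells (KO AngII, KO saline, WT AngII, WT saline), with 60064038 to 94698727 UMIs and median depths of 9294, 6071, 9938 and 5888 UMIs per cell. Pairs of libraries shared 92 to 148 cell barcodes, 0.993% to 1.74% of a library. Cells were gated on UMIs of a few genes. The phagocyte gate required at least 10 UMIs of Lyz2, C1qa and C1qb together and fewer than 10 of Dcn and Lum. The fibroblast gate required at least 10 UMIs of Dcn and Lum and at most 1 of Myh11. The smooth muscle gate required at least 3 UMIs of Myh11.

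Class II molecules present peptides from the endosomal pathway to CD4+ T cells. The α and β chains assemble with the invariant chain, which blocks the groove until the molecule H2-M exchanges the remaining invariant chain fragment for a peptide. Dendritic cells, B cells and some macrophages express the genes constitutively or after interferon-gamma, through the coactivator Ciita, which is recruited by factors bound to the X and Y boxes of the promoters. H2-Aa and H2-Ab1 encode the α and β chains of I-A, H2-Eb1 encodes the β chain of I-E, Cd74 encodes the invariant chain, and H2-DMa and H2-DMb1 encode the chains of H2-M.

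H2-Aa, H2-Ab1, H2-Eb1, H2-DMa and H2-DMb1 lie within the major histocompatibility complex on chromosome 17 (GENCODE M21, GRCm38). H2-Aa spans chr17:34282744-34287823 on the minus strand and H2-Ab1 chr17:34257689-34269419 on the plus strand. H2-Eb1 spans chr17:34305867-34316674, H2-DMa chr17:34119541-34139101 and H2-DMb1 chr17:34153072-34160230, each on the plus strand. H2-DMa overlaps Brd2 on the opposite strand, and H2-DMb1 has a near-identical neighbour, H2-DMb2, so counting between these genes is uncertain.

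The promoters of 3 members are shown as examples, and what they share is given below the sequences. No link between these sequences and the ratios in phagocytes was tested. Each line gives the 150 bases before the RefSeq start (GRCm38.p6), 5′ to 3′ on the gene's strand. Capitals mark matches, on either strand, to the Y box core GATTGG, the X box core AACNGATG and the cyclic AMP response element TGACGTCA.
H2-Aa, chr17:34287824-34287973, minus strand: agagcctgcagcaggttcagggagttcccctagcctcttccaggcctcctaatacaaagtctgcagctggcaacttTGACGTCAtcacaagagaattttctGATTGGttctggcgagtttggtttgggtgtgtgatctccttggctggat
H2-Eb1, chr17:34305717-34305866, plus strand: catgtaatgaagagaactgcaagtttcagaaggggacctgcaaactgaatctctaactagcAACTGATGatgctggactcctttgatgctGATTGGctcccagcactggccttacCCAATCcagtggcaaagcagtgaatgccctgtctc
H2-DMb1, chr17:34153041-34153190, plus strand: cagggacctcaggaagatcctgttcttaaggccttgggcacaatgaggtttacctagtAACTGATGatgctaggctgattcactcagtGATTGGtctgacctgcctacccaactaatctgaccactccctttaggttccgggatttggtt

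The X box core ended at base -82 of H2-Eb1 and at base -85 of H2-DMb1, and a Y box core began at base -60 of H2-Eb1 and at base -62 of H2-DMb1, counted back from the start. H2-Aa had the Y box core from base -49 and the response element from base -74, with no match to these letters of the X box core. Among 32851 mouse promoter windows of 300 bases in the same table, 2.32% held the X box core, 16.1% the Y box core and 1.79% the response element. A match is a description of the letters and not a measured binding site. Of the 2 windows of H2-DMa, 1 held the Y box core, from base -199. H2-Ab1 and Cd74 are named only.

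Phagocytes were the main source of class II UMIs although they were few. The phagocyte gate held 561 cells of KO AngII, 83 of KO saline, 705 of WT AngII and 285 of WT saline, which were 6.59%, 0.689%, 8.30% and 3.08% of the libraries. These cells carried 72.0%, 70.1%, 84.6% and 87.2% of all class II UMIs. The whole libraries held 31312, 9700, 73220 and 9403 class II UMIs, or 331, 126, 808 and 157 per 1000000 UMIs. In whole libraries a larger number of phagocytes and more RNA per phagocyte cannot be told apart, and the comparisons below are within gates. All 7 macrophage markers listed, of which the gate used C1qa and C1qb and not Adgre1, Csf1r or Mrc1, were detected in the gate in each library. The T cell markers among the listed genes, 2 of 4, had 0 UMIs in the gate.

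The gate also held transcripts of other cells. Of its cells, 82 in KO AngII, 18 in KO saline, 85 in WT AngII and 34 in WT saline also met the smooth muscle gate. The 5 smooth muscle markers, all detected, summed to 6019, 7870, 5395 and 6324 UMIs per 1000000 UMIs of the gate (CPM). The 5 markers of conventional type 2 dendritic cells, which express class II, summed to 144, 865, 151 and 518 CPM, with Flt3 at 0 in both saline libraries. In the whole libraries most UMIs of this list were of Mgl2 (314, 328, 498 and 531) and Clec10a (290, 116, 370 and 290). Cd209a had 161, 62, 86 and 8 UMIs and Itgax 46, 7, 118 and 3, more in the AngII library of each genotype. The sum is therefore not read as a number of dendritic cells. The part of dendritic cells in the ratios was not tested. Doublets were not called here, and whether any had been removed before deposit was not given. The part of the cells that also met the smooth muscle gate was not measured on its own. Exclusive gates kept 451 phagocytes in KO AngII, 55 in KO saline, 568 in WT AngII and 235 in WT saline. They thus left out more cells than those that also met the smooth muscle gate. In what follows, mixed cells are all phagocytes that the exclusive gates left out. The values without them are given beside the ratios.

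The order of levels in phagocytes was KO saline, WT AngII, and then KO AngII and WT saline, which lay close together except for Cd74. Levels are CPM of the gate, with exact Poisson intervals where neighbours were close, and no length scaling was applied because each transcript is tagged once, at an end. UMIs of the same cell are not independent, so these intervals are narrow.

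The I-A and I-E chains had this order. H2-Aa stood at 756 CPM in KO AngII, 1985 in KO saline, 1556 in WT AngII and 725 in WT saline. H2-Ab1 stood at 745, 2018, 1634 and 653 CPM in the same libraries, and H2-Eb1 at 600, 1805, 1220 and 562 CPM. KO saline and WT AngII were the high libraries for each chain. For H2-Aa the intervals of KO AngII (732 to 781) and WT saline (683 to 769) overlapped, as did those for H2-Eb1 (578 to 622 and 525 to 600.4), whereas those for H2-Ab1 did not (721 to 770 and 613 to 694).

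Cd74, the invariant chain gene on chromosome 18 (bases 60803848 to 60812652, plus strand), was the most counted member, with 2366 CPM in KO AngII, 7842 in KO saline, 4825 in WT AngII and 3239 in WT saline. It was the only member with KO AngII below WT saline and intervals that did not overlap (2323 to 2410 and 3149 to 3330).

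The H2-M chains were counted least often. H2-DMa had 104 CPM in KO AngII, 317 in KO saline, 225 in WT AngII and 124 in WT saline, and H2-DMb1 had 76.5, 208, 171 and 68.1 CPM. The intervals of H2-DMb1 overlapped between KO saline (170 to 254) and WT AngII (161 to 181), and between KO AngII (68.9 to 84.7) and WT saline (55.7 to 82.6).

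**Figure D1:**
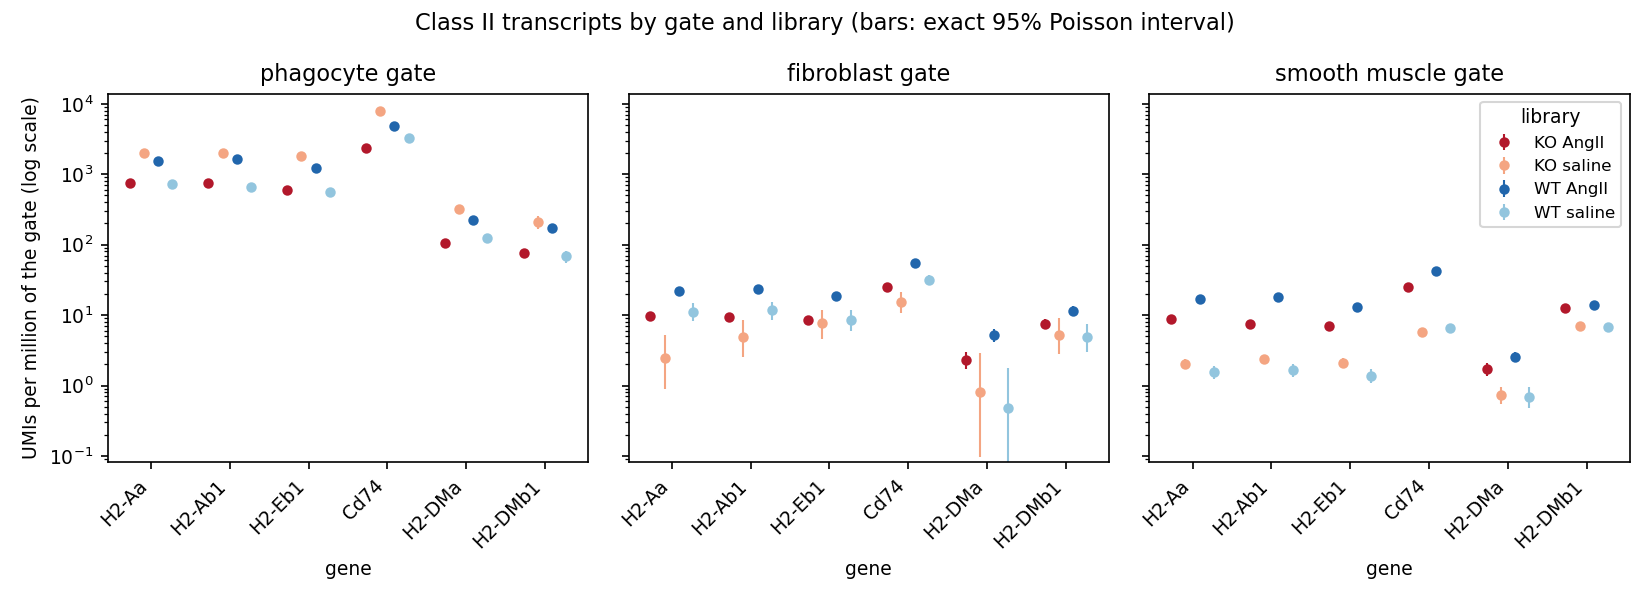
CPM (log scale) of the 6 class II genes in the phagocyte, fibroblast and smooth muscle gates of the 4 libraries; bars are exact 95% Poisson intervals. In phagocytes each gene is highest in KO saline, with Cd74 at 7842 CPM there, and every gene is lower in fibroblasts and smooth muscle than in phagocytes of the same library.

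In wild type phagocytes, class II genes were higher with AngII. The log2 ratio of WT AngII over WT saline was 1.10 for H2-Aa, 1.32 for H2-Ab1, 1.12 for H2-Eb1, 0.86 for H2-DMa, 1.33 for H2-DMb1 and 0.58 for Cd74. At least 2-fold higher were 4 of the 6 members, and 0 at least 2-fold lower. Of the 8611 genes with at least 50 UMIs over both libraries, 6.39% were at least 2-fold higher and 4.81% lower. The members' median was 1.11 against -0.07 over these genes. H2-DMa and Cd74 were under 2-fold. Without the mixed cells H2-Aa was also under 2-fold (0.98), which left 3 of 6, and the median was 1.01.

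In knockout phagocytes the direction was the opposite. KO AngII over KO saline was -1.39 for H2-Aa, -1.44 for H2-Ab1, -1.59 for H2-Eb1, -1.61 for H2-DMa, -1.45 for H2-DMb1 and -1.73 for Cd74. All 6 were at least 2-fold lower, where 5.35% of 7415 genes were lower and 7.3% higher, and the median was -1.52 against 0.01. The saline side of this ratio rests on 83 cells, of which 6 held 50% of the class II UMIs. Leaving out the mixed cells gave a median of -1.15.

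Between genotypes the sign depended on the treatment. With AngII, KO over WT was between -1.02 (H2-Eb1) and -1.16 (H2-DMb1), and 6 of 6 members were at least 2-fold lower in KO AngII, where 2.3% of 9294 genes were lower and 0.721% higher. With saline, KO over WT was between 1.28 (Cd74) and 1.68 (H2-Eb1), and 6 of 6 were at least 2-fold higher in KO saline, where 2.08% of 4562 genes were higher and 3.4% lower. The KO saline side again rests on 83 cells, of which 5 held 47.7% of the class II UMIs. The medians were -1.08 with AngII and 1.53 with saline, against 0.02 and -0.02 over the genes measured. Without the mixed cells they were -0.93 and 1.23, and 0 of 6 members were then 2-fold lower in KO AngII than in WT AngII, while 6 of 6 were 2-fold higher in KO saline than in WT saline. Without the 5% of cells with most UMIs, 3 of 6 were 2-fold lower in KO AngII than in WT AngII. For comparison, the medians of 8 other phagocyte transcripts in the same gate, such as Tyrobp and Fcer1g, were 0.16 for KO AngII over KO saline, 0.22 for WT AngII over WT saline, -0.21 for KO AngII over WT AngII and -0.26 for KO saline over WT saline. Of these 8, 3 (Cd52, Aif1 and Ctss) were at least 2-fold higher in WT AngII than in WT saline and 1 (Cd52) was at least 2-fold lower in KO AngII than in WT AngII, with 0 in the other comparisons. The 4 comparisons share libraries in pairs, so they are not independent of each other.

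**Figure D2:**
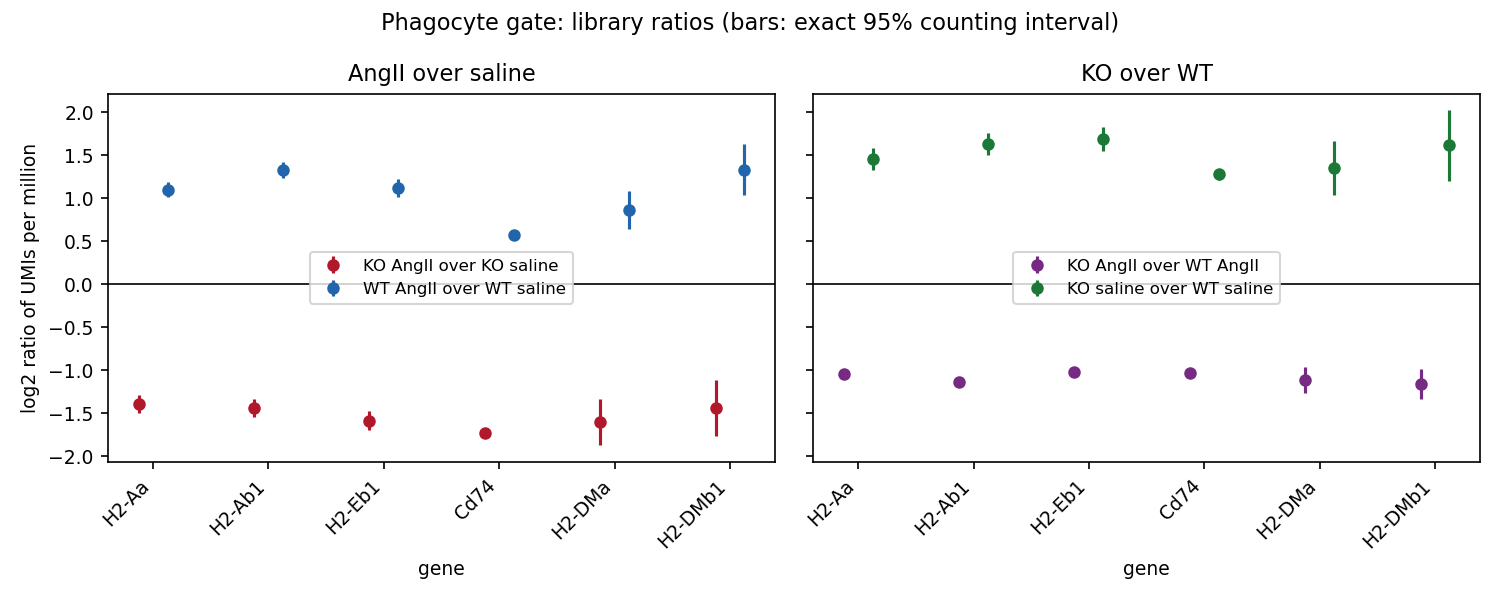
Log2 ratios of the 6 genes in the phagocyte gate, AngII over saline within each genotype (left) and KO over WT within each treatment (right); bars are exact 95% counting intervals. KO AngII lies below KO saline for all 6 genes (-1.39 to -1.73) while WT AngII lies above WT saline (0.58 to 1.33), and the KO over WT ratios are negative with AngII and positive with saline.

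Class II transcripts were spread unevenly over the phagocytes. The 10% of phagocytes with most class II UMIs held 88.2% of them in KO AngII, 67.1% in KO saline, 64.6% in WT AngII and 68.1% in WT saline. The median phagocyte had 1.45 class II UMIs per 10000 of its UMIs in KO AngII, 10.2 in KO saline, 5.21 in WT AngII and 5.66 in WT saline. The 90th percentile was 123, 477, 402 and 194 per 10000. KO AngII was lowest at both points, and the WT libraries were close at the median and apart at the 90th percentile. In WT, the difference by treatment thus lay in the upper part of the distribution.

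To compare cells of different depth, each was thinned to 2000 UMIs, which left out 1 phagocyte of KO saline and 2 of WT saline. A phagocyte was called class II high with at least 10 class II UMIs of the 2000. In KO AngII 84 of 561 phagocytes were class II high (14.97%, exact Clopper-Pearson interval 12.1 to 18.2). In KO saline 25 of 82 were (30.5%, 20.8 to 41.6), in WT AngII 193 of 705 (27.4%, 24.1 to 30.8) and in WT saline 67 of 283 (23.7%, 18.8 to 29.1). Without thinning, cells with class II at 0.5% or more of their UMIs made up 14.8%, 30.1%, 27.5% and 23.5%. The thinned interval of KO AngII lay below the other 3, which overlapped. The class is defined by a limit on a count and is named as a range of that count, not as a cell type. Between 5 and 19 UMIs, near the limit, lay 33, 13, 82 and 45 cells, against 43, 14, 106 and 20 cells with at least 50. Cells with at least 50 made up 7.66%, 17.1%, 15.04% and 7.07%, so the WT libraries differed more at the top (WT AngII 12.5 to 17.9, WT saline 4.37 to 10.7) than at the lower limit.

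At the other end, 61.0% of KO AngII phagocytes had no class II UMI among the 2000, against 36.6% in KO saline, 37.4% in WT AngII and 39.2% in WT saline. The share with at least 1 was therefore 39.0%, 63.4%, 62.6% and 60.8%, and without thinning it was 63.99%, 80.7%, 86.5% and 74.4%. In the smooth muscle gate, taken as a background although it holds cells that also met the phagocyte gate, it was 4.57%, 2.83%, 6.65% and 2.48% after thinning. Median depths were 8718, 6459, 10292 and 6393 UMIs there, against 7589, 5113, 7905 and 4678 in phagocytes. H2-DMb1 alone was found in 2.26%, 1.41%, 2.47% and 1.21% of thinned smooth muscle gate cells, and Cd74 in 1.27%, 0.582%, 2.22% and 0.597%.

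By member, Cd74 was found in the largest share of thinned phagocytes, 27.1% in KO AngII, 56.1% in KO saline, 46.4% in WT AngII and 49.8% in WT saline. H2-Aa was found in 16.4%, 36.6%, 32.3% and 29.3%, H2-Ab1 in 17.8%, 39.02%, 36.2% and 28.98%, and H2-Eb1 in 17.1%, 32.9%, 30.1% and 23.3%. KO AngII had the smallest share for each of these 4 genes. H2-DMa was found in 13.7%, 24.4%, 30.8% and 15.9%, also with KO AngII smallest, and H2-DMb1 in 11.1%, 26.8%, 21.7% and 8.48%, with WT saline smallest. The intervals of KO AngII and WT saline overlapped for H2-Eb1 (14.1 to 20.5 and 18.5 to 28.7), H2-DMa (10.99 to 16.9 and 11.8 to 20.7) and H2-DMb1 (8.58 to 13.9 and 5.51 to 12.4).

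**Figure D3:**
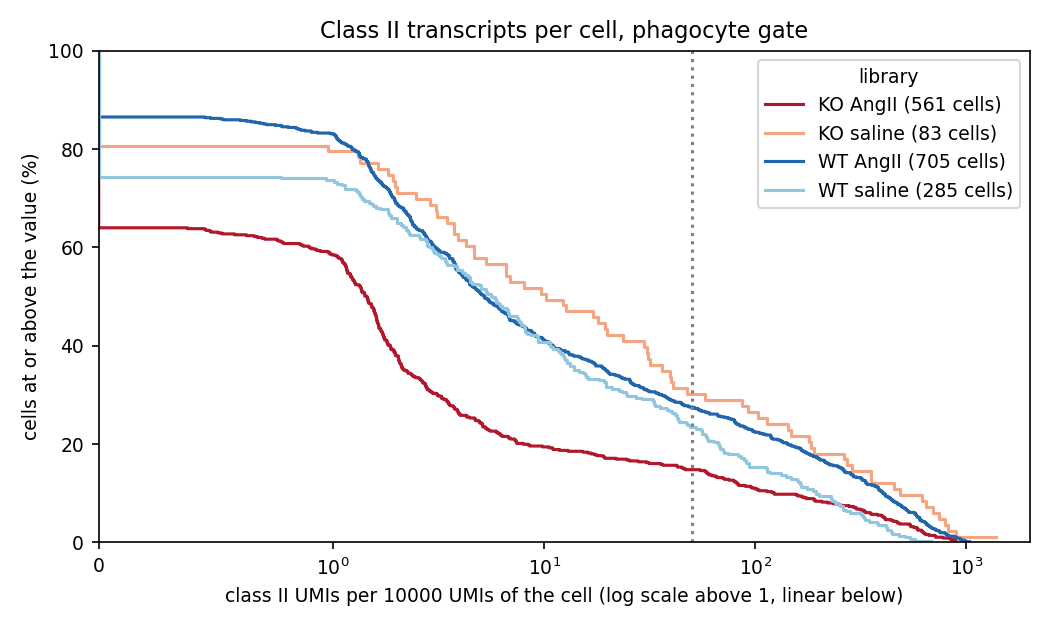
Percentage of phagocyte gate cells (y) at or above a given number of class II UMIs per 10000 UMIs of the cell (x, log scale above 1 and linear below), 1 line per library; the dotted line marks 50 per 10000. KO AngII runs lowest over most of the range, with WT saline lower at the far right, and the WT lines separate above the dotted line, where the 90th percentiles are 402 in WT AngII and 194 in WT saline.

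Phagocytes with monocyte markers had high class II levels and were nearly absent from the saline libraries. Cells were divided by their UMIs of resident macrophage markers (Lyve1, Timd4, Folr2, Cd163 and F13a1) and of monocyte markers (Ccr2, Ly6c2, Plac8, Chil3 and S100a8). A cell needed at least 3 UMIs of a list and more of it than of the other, with ties given to the monocyte markers. This division was chosen after the data were seen and depends on depth, which was lower in the saline libraries. Cells with resident markers numbered 421 in KO AngII, 63 in KO saline, 409 in WT AngII and 274 in WT saline, or 75.04%, 75.9%, 58.0% and 96.1% of the gate. Cells with monocyte markers numbered 29, 1, 110 and 1, and cells with neither 111, 19, 186 and 10. In the saline gates Ccr2 was the only monocyte marker detected, with 9 UMIs in KO saline and 12 in WT saline. All 5 were detected in the AngII gates, with 395 UMIs together in KO AngII and 1200 in WT AngII. The subsets are named by their lists and not as cell types.

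In cells with monocyte markers the summed class II level was 27812 CPM in KO AngII and 22882 CPM in WT AngII, a log2 ratio of 0.28 (0.24 to 0.32). In cells with resident markers it was 1575 CPM in KO AngII, 9130 in KO saline, 3608 in WT AngII and 4408 in WT saline. Cells with neither had 9684, 28717, 13009 and 20563 CPM. KO AngII was thus below WT AngII in cells with resident markers (-1.20) and in cells with neither (-0.43), but not in those with monocyte markers. After thinning, class II high cells made up 69.0% of the cells with monocyte markers in KO AngII (49.2 to 84.7) and 59.1% in WT AngII (49.3 to 68.4). They made up 6.41% of the cells with resident markers in KO AngII (4.27 to 9.19), 25.4% in KO saline (15.3 to 37.9), 11.98% in WT AngII (8.996 to 15.5) and 22.4% in WT saline (17.6 to 27.9). In cells with resident markers the share was thus larger in the saline libraries, although the interval of KO saline reached that of WT AngII.

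Within cells with resident markers, the sum in WT AngII was below that in WT saline (-0.29), whereas the median of the 6 members was 0.17. The 2 summaries differ in sign. Cd74, the most counted member, was at 1730 CPM in WT AngII and 2725 in WT saline, while H2-Ab1 was at 646 and 515. H2-Aa was level in these cells, with 563 CPM in WT AngII and 577 in WT saline (-0.035). KO AngII over KO saline was -2.53 for the sum and -2.32 for the median of members in cells with resident markers. The higher class II level of WT AngII in the whole gate was therefore not seen in the sum over cells with resident markers or over cells with neither (-0.66). Cells with monocyte markers held 41.9% of the class II UMIs of the gate in WT AngII and 31.3% in KO AngII.

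**Figure D4:**
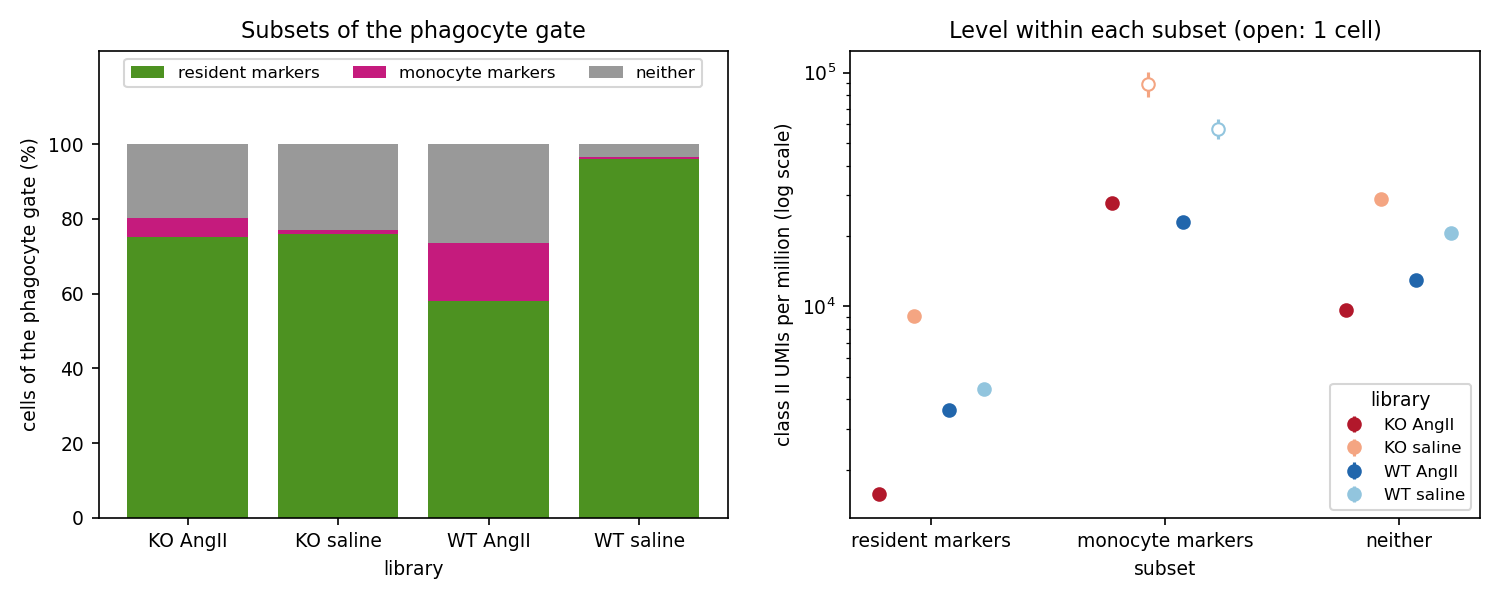
Left, percentage of phagocyte gate cells with resident macrophage markers, monocyte markers or neither, by library. Right, summed class II CPM (log scale, with exact 95% Poisson intervals) within each subset; open circles are single cells. In cells with resident markers KO AngII is lowest at 1575 CPM and KO saline highest at 9130 CPM, while KO AngII and WT AngII are near each other in cells with monocyte markers (27812 and 22882 CPM).

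The I-A and I-E chain genes varied together from cell to cell. Over phagocytes within a library, Pearson's r of log UMIs per 10000 averaged 0.95 over the 4 libraries for H2-Aa with H2-Eb1, 0.94 for H2-Aa with H2-Ab1, and 0.90 for H2-Aa with Cd74. It averaged 0.60 for H2-DMa with H2-DMb1, with a range of 0.37 to 0.78. The cells share their library and its depth, and the H2-M genes have few UMIs per cell, so these are descriptions.

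The proportions of the members differed by library as well. Per 100 Cd74 UMIs, phagocytes had 32.0 H2-Aa UMIs in KO AngII, 25.3 in KO saline, 32.2 in WT AngII and 22.4 in WT saline. For H2-Ab1 the values were 31.5, 25.7, 33.9 and 20.1. For H2-Eb1 they were 25.4, 23.0, 25.3 and 17.3. Both AngII libraries had more α and β chain UMIs per invariant chain UMI than the saline library of the same genotype, while the levels of the members lay in opposite directions in KO and WT. For H2-Eb1 in KO the difference was small and the intervals overlapped (24.3 to 26.4 in KO AngII, 21.4 to 24.8 in KO saline).

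The 10 other genes most like the class II sum in single phagocytes were found among 4432 genes detected in at least 10% of the gate's cells in every library, by the mean r over the 4 libraries. They were Cd52 (0.40), Tmem176a (0.31), Rps18 (0.31), Bcl2a1d (0.31), Tmem176b (0.31), Mgl2 (0.30), Rgs1 (0.28), Lpl (0.27), Lsp1 (0.27) and Tmsb10 (0.26). The lowest were Lgals1 (-0.38), Pf4 (-0.31), Stab1 (-0.31), F13a1 (-0.30) and Gas6 (-0.28). F13a1 is also on the resident list above.

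In phagocytes, transcription factors of the class II promoters showed no 2-fold difference where they could be measured. Ciita, the coactivator, had only 7 UMIs in KO AngII phagocytes, 1 in KO saline, 35 in WT AngII and 0 in WT saline. The gate totals were 4850765, 479699, 6431341 and 1526242 UMIs. These counts were too few for a ratio under the minimum of 50 UMIs over both libraries. Whether Ciita differed between libraries was therefore not measured. Of the 8 factor genes listed, 6 reached 50 UMIs in WT AngII over WT saline, 5 in KO AngII over KO saline, 7 in KO AngII over WT AngII and 2 in KO saline over WT saline, and 0 of these were 2-fold apart. In fibroblasts, of 7 measured, 1 (Rfxank, -1.20) was at least 2-fold lower in KO AngII than in KO saline, where 14.4% of 11002 genes were lower. In KO saline over WT saline 1 of 7 (Nfya, 1.32) was at least 2-fold higher, where 3.09% of 8700 genes were. Nothing is read from these single genes. H2-Oa, H2-Ob and H2-DMb2, other class II loci, did not reach 50 UMIs in any comparison. H2-Ea and H2-Eb2 were not among the genes listed in the libraries, so they could not be measured.

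Genes of peptide loading and class II turnover did not follow the members in KO phagocytes. Ctsd, a lysosomal protease, was higher with AngII in both genotypes, with 1926 CPM in KO AngII against 548 in KO saline (1.81) and 1772 in WT AngII against 532 in WT saline (1.74). Ctss, the protease that degrades the invariant chain, was at 1089 in KO AngII against 690 in KO saline (0.66), and at 1773 in WT AngII against 886 in WT saline. Of 8 such genes, 3 (Ctsd, Ctsl and March8) were 2-fold or more above KO saline in KO AngII and 1 was below by as much, where 7.3% of all genes measured were higher and 5.35% lower. In WT, 2 of the 8 (Ctsd and Ctss) were above WT saline in WT AngII by as much, where 6.39% of genes were higher. March1, a ligase that drives turnover of surface class II, was the one below KO saline in KO AngII, at -1.40.

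In phagocytes, MHC class I genes, which present cytosolic peptides, had medians of the same sign as the members in each comparison. In KO AngII over WT AngII, 4 of 8 were at least 2-fold lower, where 2.3% of all genes measured were, and the median was -1.07, close to that of the class II members (-1.08). H2-K1, a class I heavy chain, had 402 CPM in KO AngII and 969 in WT AngII (-1.27), and Psmb9, an immunoproteasome subunit, had 43.1 and 127 CPM (-1.56). For KO AngII over KO saline the class I median was -0.57 against -1.52 for class II, and in KO saline over WT saline it was 0.17 against 1.53. The signs differed in other gates: for KO AngII over KO saline the class I median was -1.11 against 0.83 for class II in fibroblasts and -0.12 against 1.72 in smooth muscle, and for KO saline over WT saline it was 0.08 against -1.15 in fibroblasts.

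In phagocytes, costimulatory genes differed among themselves. Cd86, a ligand of CD28, was at 66.4 CPM in KO AngII against 150.1 in KO saline (-1.18), and at 102 in WT AngII against 168 in WT saline (-0.72). Cd274, which encodes PD-L1, was counted 77 times in WT AngII and 3 times in WT saline, a log2 ratio of 2.61 (1.01 to 4.92). Irf1, which can act on the Ciita promoter, was lower with AngII in KO (-1.49) and in WT (-0.89). It did not stand for the listed genes of the interferon-gamma response. In WT AngII over WT saline 2 of the 7 measured were at least 2-fold higher and 0 lower (median 0.06). Of all genes measured there, 6.39% were higher and 4.81% lower. In KO AngII over KO saline 1 of 6 was higher and 1 lower (median -0.12), against 7.3% and 5.35% of all genes. Cd40 and Icosl were under 2-fold in each comparison of phagocytes where they could be measured.

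Smooth muscle cells gave few class II UMIs apart from H2-DMb1. In cells of the smooth muscle gate outside the phagocyte limit (fewer than 10 UMIs of the phagocyte gate genes), the other 5 members stood at 0.379% to 0.933% of their phagocyte level in KO AngII, 0.0404% to 0.202% in KO saline, 0.195% to 0.456% in WT AngII and 0.0733% to 0.368% in WT saline. A set of 8 other phagocyte transcripts, among them Tyrobp and Fcer1g, stood at 0.128% to 0.254%, 0.0411% to 0.0841%, 0.182% to 0.251% and 0.0496% to 0.113%.

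H2-DMb1 was at 16.0% of its phagocyte level in smooth muscle of KO AngII, 3.29% in KO saline, 7.60% in WT AngII and 9.78% in WT saline. It gave 721, 483, 823 and 351 UMIs there, in 586, 441, 718 and 333 cells, and no cell had more than 7. The 10 cells with most held only 5.27%, 4.76%, 3.77% and 5.70% of them. In smooth muscle cells with no UMI of the other members or of the phagocyte gate genes, the level was 12.1, 6.91, 13.2 and 6.99 CPM. Per 100 Cd74 UMIs there were 137, 217, 138 and 281 H2-DMb1 UMIs in smooth muscle, against 3.23, 2.66, 3.54 and 2.10 in phagocytes.

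H2-DMb1 of smooth muscle therefore did not keep the proportion to Cd74 found in phagocytes of the same library. H2-DMa, which encodes its partner chain, had 10.8, 20.2, 10.9 and 19.2 UMIs per 100 Cd74 in smooth muscle, against 4.39, 4.04, 4.66 and 3.82 in phagocytes. Its proportion was thus also higher in smooth muscle, but its level there was at most 0.933% of its phagocyte level. In fibroblasts outside the phagocyte limit H2-DMb1 was at 9.33%, 2.52%, 6.32% and 6.85% of its phagocyte level, and H2-DMa at 1.67%, 0.255%, 1.62% and 0.198%. After thinning to 2000 UMIs, 2.19%, 1.40%, 2.37% and 1.20% of smooth muscle cells held an H2-DMb1 UMI. Before thinning, only 18, 3, 11 and 0 of these smooth muscle cells held 3 or more.

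Over the whole smooth muscle gate H2-DMb1 was higher with AngII in WT (14.1 CPM in WT AngII, 6.76 in WT saline, log2 ratio 1.06) and in KO (12.6 CPM in KO AngII, 6.91 in KO saline, 0.87). It hardly differed by genotype, with -0.16 for KO AngII over WT AngII and 0.03 for KO saline over WT saline. In the cells outside the phagocyte limit the AngII over saline ratio was 0.96 in WT, under 2-fold, and 0.84 in KO.

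**Figure D5:**
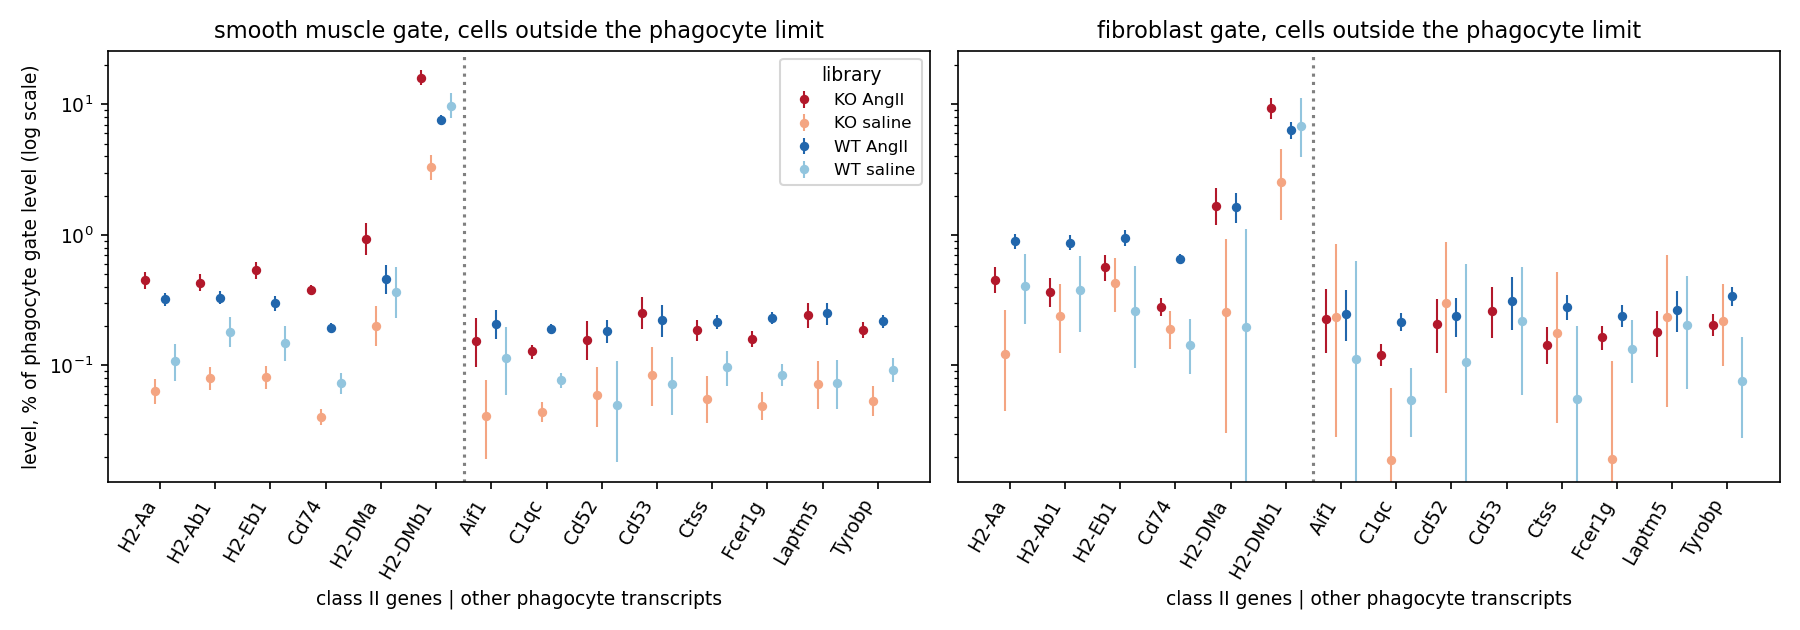
Level of the 6 class II genes and of 8 other phagocyte transcripts in smooth muscle (left) and fibroblast (right) gate cells outside the phagocyte limit, as a percentage of the level in the phagocyte gate of the same library (log scale; bars are exact 95% counting intervals, genes at 0 are not drawn). H2-DMb1 stands at 3.29% to 16.0% in smooth muscle, while the other members and the phagocyte transcripts lie below 1%.

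The members and other phagocyte transcripts were both higher with AngII in smooth muscle. In WT AngII over WT saline 6 of 6 members were at least 2-fold higher in the smooth muscle gate, where 7.07% of 12709 genes were higher and 5.44% lower (median 2.99), and so were 7 of the 8 phagocyte transcripts (median 1.88). In KO AngII over KO saline 5 of 6 members were, where 6.59% of 12827 genes were higher and 6.38% lower (median 1.72), and 8 of 8 phagocyte transcripts (median 3.23). The phagocytes' share of cells was also larger in both AngII libraries, as given above. Their part in the smooth muscle values was not tested. In KO AngII over WT AngII 1 of 6 members, H2-Ab1 (-1.23), was at least 2-fold lower, where 1.43% of genes were lower and 2.15% higher (median -0.84), and so were 2 of 8 phagocyte transcripts (median -0.52). In KO saline over WT saline 0 of 6 were 2-fold apart, where 2.34% of genes were higher and 2.19% lower (median 0.25), whereas 8 of 8 phagocyte transcripts were at least 2-fold lower (median -1.95).

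These smooth muscle values depended on the cells that also reached the phagocyte limit. Without those cells, 5 of 6 members were at least 2-fold higher in WT AngII than in WT saline (median 2.06) and 4 of 6 in KO AngII than in KO saline (median 1.07). None, 0 of 6, were then 2-fold lower in KO AngII than in WT AngII (median -0.13), with H2-Ab1 at -0.75. In KO saline over WT saline, 0 of 6 were 2-fold apart (median 0.47).

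Fibroblast levels were low and came from few cells. Summed class II stood at 62.4 CPM in KO AngII, 36.4 in KO saline, 136 in WT AngII and 68.3 in WT saline. Cells with at least 12 class II UMIs numbered 9 of 1880, 2 of 506, 21 of 1698 and 3 of 1021, and these held 69.1%, 53.3%, 72.8% and 72.2% of the fibroblast class II UMIs. In WT AngII over WT saline 4 of 6 members were at least 2-fold higher, where 7.56% of 11037 genes were higher and 8.16% lower (median 1.07), and so were 4 of 8 phagocyte transcripts (median 1.03). Exclusive gates keep fibroblasts with at most 1 UMI of the phagocyte gate genes. The members' median for this comparison was 2.31 with exclusive gates and 0.56 with stricter gates (30 UMIs), with 6 and 2 of 6 members at least 2-fold higher. In KO AngII over KO saline 2 of 6 were, where 7.81% of genes were higher and 14.4% lower (median 0.83), on 90 class II UMIs in KO saline, as were 8 of 8 phagocyte transcripts (median 2.06). With exclusive gates 0 of the 5 members measured were. In KO AngII over WT AngII 5 of 6 were at least 2-fold lower, where 5.71% of genes were lower and 1.98% higher (median -1.16), as were 5 of 8 phagocyte transcripts (median -1.13), but 0 of 6 members were with stricter gates. In KO saline over WT saline 4 members had 50 UMIs and 3 were at least 2-fold lower, where 3.09% of genes were lower and 3.09% higher (median -1.15), as were 3 of the 3 phagocyte transcripts measured (median -3.83). The medians of members and phagocyte transcripts lay close together in 2 of these comparisons, WT AngII over WT saline and KO AngII over WT AngII, and apart in the other two.

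Outside all gates, a few cells were rich in class II. Cells of no gate with class II at 0.5% of their UMIs or more numbered 10 in KO AngII, 4 in KO saline, 17 in WT AngII and 1 in WT saline, with 5070, 1511, 6189 and 29 class II UMIs. Of these, 7, 1, 9 and 0 carried dendritic cell markers and 1, 1, 6 and 1 endothelial markers. Ccr7, the receptor that guides dendritic cells to lymph nodes, gave 48 UMIs in 4 of these cells in KO AngII and 56 in 5 of these in WT AngII, and 0 in those of both saline libraries. With 10 cells or fewer in most libraries, no order between libraries was read from them.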

How the data were processed

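For each library the authors deposited a matrix of raw counts, genes by cell barcodes, that had not been normalized. Cell Ranger and mm10 appear per the submitters' processing notes, with versions, annotation and cell filters not given in the sources used here. No cell had fewer than 719 or more than 4998 detected genes, so cells had been filtered before deposit. The 6 members, the gates and the gene lists were chosen with earlier results of these data known.

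UMIs were summed per gate and library and divided by the gate's total (CPM). Ratios of CPM have exact conditional intervals. Background shares cover every gene with at least 50 UMIs over both libraries. A gene was called different at 2-fold. Smooth muscle cells in the phagocyte gate were kept in the main values, and doublets were not called. The named genes were all members, the listed pathway genes (apart from a gene that is not reported here), and the 10 most and 5 least like genes by correlation. The interval and the ratio code were tested on simulated data. Python 3.11.15, numpy 2.4.6, scipy 1.17.1, pandas 2.3.3, matplotlib 3.10.9 and edgeR 4.0.16 (scaling factors only, in R 4.3.3) were used. Alternatives were TMM and median-of-ratios scaling, exclusive gates that leave out mixed cells, stricter gates (30 UMIs), a cell filter (500 genes, 20% mitochondrial UMIs), leaving out the 5% of cells with most UMIs, other limits for class II high, and, chosen after seeing the data, cells with resident markers only and smooth muscle cells outside the phagocyte limit.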

Additional observations from a re-analysis of the deposited data

Results flagged for a closer look

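The AngII over saline ratios of the 6 members pointed in opposite directions in KO and WT phagocytes. The log2 ratio in KO minus that in WT was -2.49 for H2-Aa, -2.76 for H2-Ab1, -2.71 for H2-Eb1, -2.30 for Cd74, -2.47 for H2-DMa and -2.77 for H2-DMb1. These results were picked out because the single library pair of each genotype moved the opposite way. The difference itself was not tested, since each group is 1 library. In cells with resident markers the sum was lower with AngII in both genotypes (-2.53 in KO, -0.29 in WT).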

How the results depend on the processing

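No paired analysis was possible because each group is 1 library and the labels give no replicate numbers, and no replicate could be left out. Each median kept its sign under every alternative that gave a value. In phagocytes, exclusive gates gave 1.01 for WT AngII over WT saline, -1.15 for KO AngII over KO saline, -0.93 for KO AngII over WT AngII and 1.23 for KO saline over WT saline, and cells with resident markers only gave 0.17, -2.32, -1.24 and 1.22. Stricter gates gave -1.74 for KO AngII over KO saline, and leaving out the 5% of cells with most UMIs gave 1.27 for WT AngII over WT saline. In fibroblasts, WT AngII over WT saline was 2.31 with exclusive gates, 0.56 with stricter gates and 2.19 without the 5% of cells with most UMIs, and KO AngII over WT AngII was -1.45 and -0.69 with exclusive and stricter gates. Exclusive gates left no member with 50 UMIs for KO saline over WT saline in fibroblasts. The share of class II high phagocytes was 11.2% in KO AngII with a limit of 20 UMIs and 43.9% in KO saline with a limit of 5. In WT AngII it was 34.3% (limit 5) and 22.7% (limit 20), and in WT saline 31.1% and 15.2%. In smooth muscle, cells outside the phagocyte limit, an alternative chosen after seeing the data, gave 2.06 for WT AngII over WT saline, 1.07 for KO AngII over KO saline and -0.13 for KO AngII over WT AngII. Among single members, in WT AngII over WT saline phagocytes with resident markers only, Cd74 turned to -0.66 and H2-Aa to -0.035. Among fibroblasts, in KO AngII over KO saline, Cd74 turned to -0.56 with exclusive gates, and H2-Eb1 to -0.44 with exclusive gates, -0.21 with stricter gates and -0.069 without the 5% of cells with most UMIs. In KO saline over WT saline smooth muscle, Cd74 was -0.15 and turned to 0.42 outside the phagocyte limit. The causes were not tested. Scaling moved fibroblast medians by 0.12 to 0.24 with AngII over saline and phagocyte medians by at most 0.07. Depth left Ciita with too few UMIs for a ratio.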
